A study of Rattus norvegicus with 12 samples.

Results

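The genes H19 and Igf2 lie beside each other in an imprinted region, and each of them carries a miRNA hairpin. On the rat miRNA array this pair of hairpins is represented by 4 of the 677 miRNAs: rno-miR-675 and rno-miR-675* of H19, and rno-miR-483 and rno-miR-483* of Igf2. The members were chosen by name. Their signals and detection calls by dam diet belong to the rule that singled them out, so these values are given as a description, with no p-value or confidence interval for the diet on any member. Standard errors beside them are those of the difference between the groups, and SDs describe the spread between rats. Soleus muscle, a slow muscle of the hind limb, was taken from 12 male Sprague-Dawley rats at the age of 1 year, with 1 array per rat. The dams of 6 control rats ate standard chow, and the dams of 6 rats of the high fat group ate a diet rich in saturated fat and sucrose before mating, in pregnancy and in lactation. All offspring ate standard chow after weaning, and the labels do not say which rats shared a dam. There were 2 slides, and 3 control rats and 3 rats of the high fat group were on either one.

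H19 is a long non-coding RNA that is made from the maternal chromosome, and Igf2 encodes a fetal growth factor that is made from the paternal one. Both genes fall in most tissues after birth, while H19 stays active in skeletal muscle and rises when myoblasts differentiate. The hairpin in H19 gives miR-675, which in muscle cells is known to act on Smad1, Smad5 and Cdc6 and to favour differentiation. The hairpin in an intron of Igf2 gives miR-483, whose 3p arm is known to rise in the adipose tissue of adult rats born to protein-restricted dams. As the offspring of high fat-fed dams are a model of nutrition before birth and in lactation, the level of these miRNAs in adult muscle is the question that the comparison of the diets addresses.

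Both hairpins are shown because their arms carry the members. In the RefSeq annotation of the GRCr8 build, Mir675 lies within H19 and Mir483 within Igf2, both on the minus strand, at chr1:207161752-207161835 and chr1:207247859-207247931. Capitals mark the 5p arm and then the 3p arm.
Mir675 hairpin: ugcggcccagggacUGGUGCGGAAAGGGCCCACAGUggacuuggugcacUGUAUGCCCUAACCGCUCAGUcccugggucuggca
Mir483 hairpin: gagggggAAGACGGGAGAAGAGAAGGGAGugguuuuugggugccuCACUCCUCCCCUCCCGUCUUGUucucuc

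The mature arms follow with the seed, bases 2 to 8, in capitals. The seed is the stretch that pairs with target mRNAs.
rno-miR-675-5p: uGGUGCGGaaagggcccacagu
rno-miR-675-3p: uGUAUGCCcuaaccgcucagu
rno-miR-483-5p: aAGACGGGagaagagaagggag
rno-miR-483-3p: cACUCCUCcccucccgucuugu

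Each of these 4 seeds was its own, with 0 other arms sharing it among the 693 mature rat names of the RefSeq table. GC content was 63.6% in rno-miR-675-5p and in rno-miR-483-3p, 54.5% in rno-miR-483-5p and 52.4% in rno-miR-675-3p, all above the median of 47.8% over the 693. The arms of Mir483 stood at opposite ends in purine content. Purines made up 95.5% of rno-miR-483-5p, the highest value of any arm in the table, and 13.6% of rno-miR-483-3p, where only 5 arms in all were that low or lower. Some names on the array carry arm labels, but the 4 members do not. They follow an older naming, in which the star marked the arm that was then taken to be the minor product. None of the 4 array names is a name in the RefSeq table, so the sequences are given by hairpin and no arm is assigned to a star name here.

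The star name of each hairpin was detected on more arrays than its partner. rno-miR-675* was detected on all 12 arrays and rno-miR-675 on 0 of 12. rno-miR-483* was detected on 11 of 12 arrays, the exception being control rat C60, and rno-miR-483 on 4 of 12. This pattern was uncommon on the array. Of 205 miRNAs listed both with and without a star, 132 had a detection of either name, and in 16 of those (12.1%) the star name was detected on more arrays. In 9 pairs, that of rno-miR-675 among them, the star name was detected on all 12 arrays and its partner on none. The others were miR-191, miR-202, miR-208, miR-296, miR-362, miR-511, miR-551b and miR-770. Among these, miR-296 is of the Gnas region and miR-770 of the Dlk1-Dio3 region, which are also imprinted. In 102 pairs the unstarred name was detected on more arrays. Probes differ in brightness, so a detection count does not rank the arms by abundance.

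**Figure D1:**
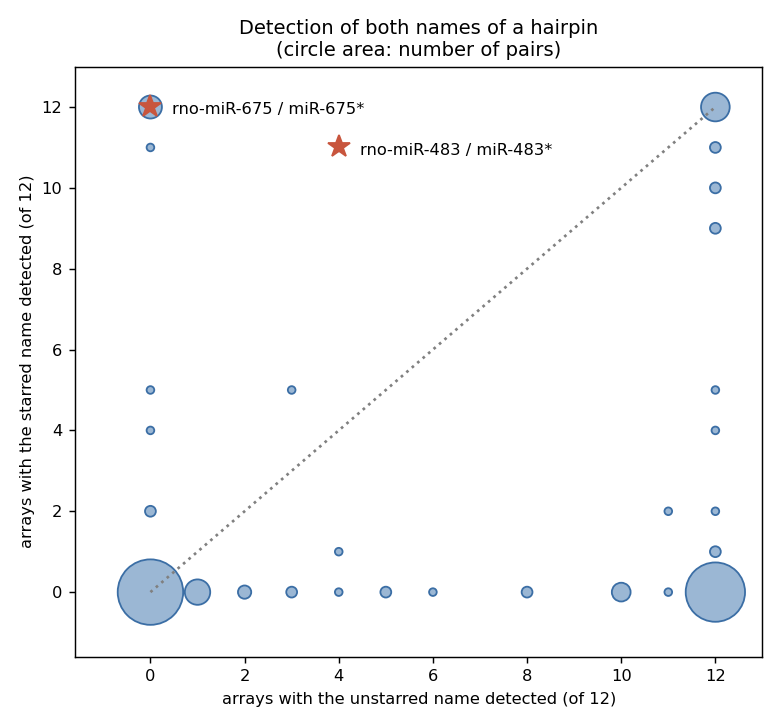
Number of arrays, of 12, on which the unstarred name (x axis) and the starred name (y axis) of a hairpin were detected, for 205 pairs, with circle area for the number of pairs and stars for the H19 and Igf2 hairpins. Both stars lie above the dotted line of equal detection, at 0 against 12 arrays and at 4 against 11.

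rno-miR-675, the name without a star of the H19 hairpin, was listed at 0.1, the value for an undetected miRNA, in all 6 control rats and all 6 rats of the high fat group, so no fold can be given. The deposited signals are in the scanner software's signal units, after its background subtraction and before any scaling between arrays.

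rno-miR-675* was dim, with a small listed error within each array. With 1 array per rat, the error between repeated arrays is not known. Its listed error was between 7.03% and 11.9% of the signal (median 9.04%), and it ranked 115th to 161st in brightness among the 177 to 220 miRNAs detected on each array. In the control rats the listed signal of rno-miR-675* was 24.4 in A110, 26.7 in C73, 27.6 in C60, 33.3 in A75, 36.6 in A89 and 42.7 in H10. In the high fat group it was 36.2 in H20, 43.5 in C51, 48.0 in A37, 51.2 in C25, 62.7 in H1 and 80.3 in H3. The groups overlapped only through H20, which lay below the control rats A89 and H10, and the other 5 rats of the high fat group lay above every control rat. The mean listed signal was 31.9 ± 6.93 (SD, n = 6) in control rats and 53.7 ± 15.8 (SD, n = 6) in the high fat group, a log2 difference of 0.73 (standard error 0.22), or 1.66-fold, with an SD of 0.36 within the groups on the log2 scale. Of the 193 miRNAs detected on at least 6 arrays, 3 (1.55%) had 5 or more rats of the high fat group above every control rat in listed signal. These were rno-miR-675*, miR-21 and miR-322, a count chosen after the values were seen, on signals not scaled for the brightness of the array. The groups did not overlap for 0 of the 193, or 0%, on the listed or the scaled scale.

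Scaling between arrays made the difference of rno-miR-675* smaller. Arrays differed in overall brightness, with a 75th percentile, taken over the 162 miRNAs detected on all arrays, from 864 in C60 to 1911 in A37, a 2.21-fold range. Each array was divided by this percentile and returned to signal units with a common factor. The scaled signal of rno-miR-675* in the control rats was then 23.6 in A110, 29.7 in A89, 34.8 in C73, 36.7 in A75, 43.2 in C60 and 46.0 in H10. In the high fat group it was 30.7 in H20, 34.0 in A37, 38.5 in C25, 42.7 in C51, 72.1 in H1 and 83.0 in H3. Only H1 and H3 lay above every control rat, and the other 4 fell inside the control range. On the scaled signal 0 of the 193 miRNAs (0%) had 5 or more rats of the high fat group above every control rat.

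The mean scaled signal of rno-miR-675* was 35.7 ± 8.33 (SD, n = 6) in control rats and 50.2 ± 21.9 (SD, n = 6) in the high fat group. The log2 difference was 0.42 (standard error 0.27), or 1.34-fold, with an SD of 0.49 within the groups. It was 0.65 (standard error 0.28) with quantile normalization and 0.60 (standard error 0.27) with scaling to the median of the miRNAs detected on all arrays. The median log2 difference of all 193 tested miRNAs was -0.17 on the scaled signal and 0.14 on the listed signal. Relative to that median, rno-miR-675* was at 0.59 on both scales. The same value follows from the scaling, which shifts every miRNA above the floor alike, so it shows no stability. As background for these values, limma with Benjamini-Hochberg adjustment called 0 of the 193 (0%) at an adjusted p under 0.05, with 2 at an unadjusted p under 0.05, and the methods' t-test called 0 and 2. Both star names are among the 193, and nothing about them is read from these counts.

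The slides gave different values for rno-miR-675*. On the first slide its scaled signal was 33.9 ± 9.86 (SD, n = 3) in control rats and 65.9 ± 20.9 (SD, n = 3) in the high fat group, a log2 difference of 0.95 (standard error 0.39). On the second slide it was 37.5 ± 8.16 (SD, n = 3) and 34.4 ± 3.91 (SD, n = 3), a log2 difference of -0.11 (standard error 0.20). In listed signal, which is not scaled for array brightness, the difference was positive on both slides, at 1.20 for the first and 0.26 for the second. The array's 75th percentile on the second slide was 1598 to 1911 in the high fat group and 1230 to 1665 in control rats. On the first slide it was 1178 to 1382 in the high fat group and 864 to 1403 in control rats. H1 and H3 were both on the first slide, and without them the log2 difference, rescaled over the other 10 rats, was 0.15 (standard error 0.21). With the letter of the rat's label as a block it was 0.18 (standard error 0.26). Of the rats labelled H, 3 of 4 are in the high fat group, and of those labelled A, 3 of 4 are controls, with scaled signals of rno-miR-675* from 23.6 to 36.7. The part of the letter in the difference was not tested. Whether the difference between the slides exceeds chance was not tested.

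**Figure D2:**
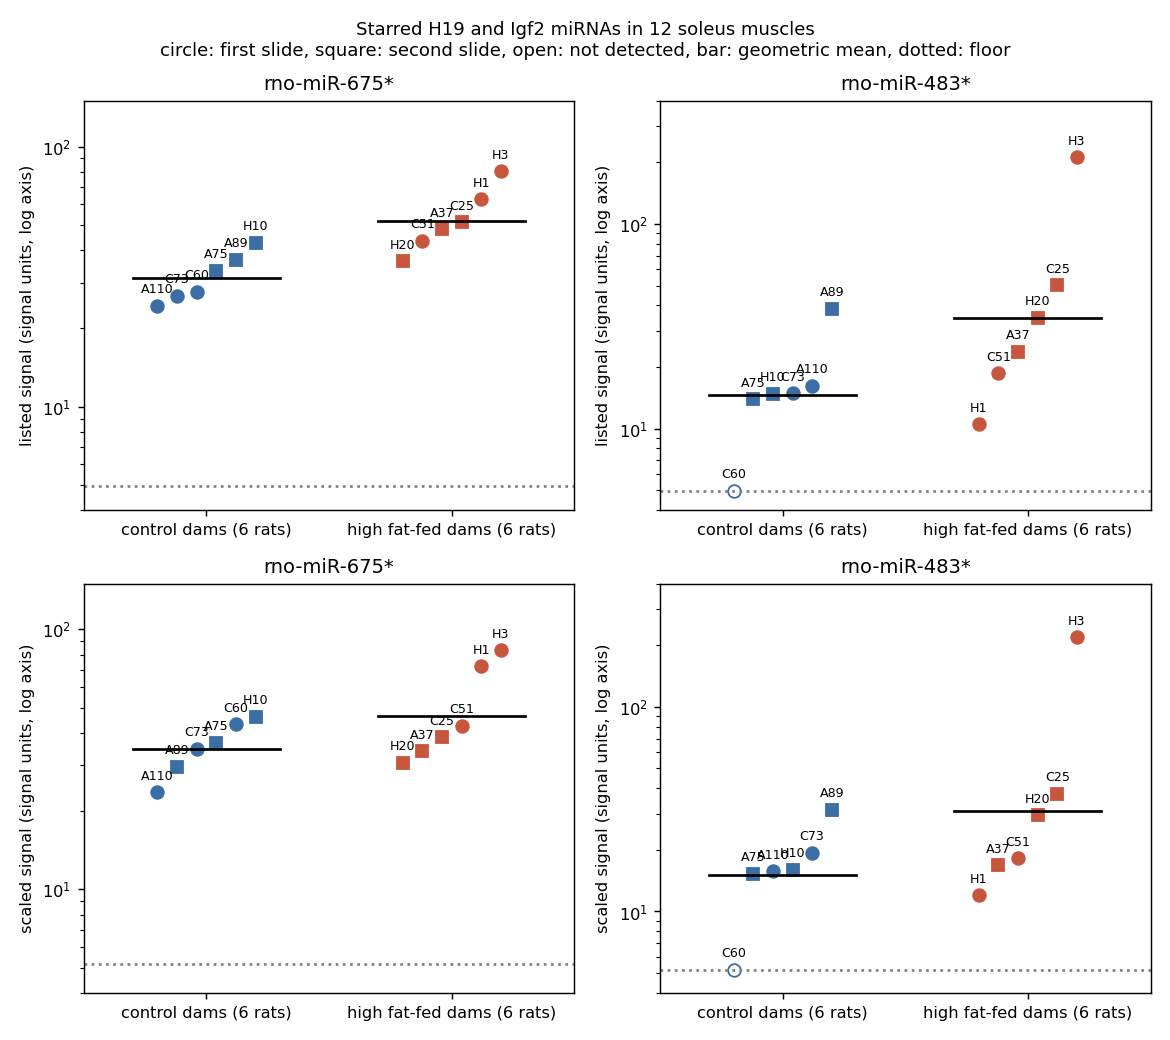
Listed (top) and scaled (bottom) signal of rno-miR-675* and rno-miR-483*, in signal units on a log axis, for each of 6 control and 6 high fat rats, with the geometric mean as a bar and the floor as a dotted line. Scaling leaves H1 and H3 as the only rats of the high fat group above all controls for rno-miR-675*, and H3 at 219 stands above the other 11 rats for rno-miR-483*.

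rno-miR-483* of Igf2 had the largest spread of the members. In the control rats its listed signal was 13.9 in A75, 14.8 in H10, 14.9 in C73, 16.2 in A110 and 38.5 in A89, and it was not detected in C60. In the high fat group it was 10.5 in H1, 18.6 in C51, 23.7 in A37, 34.9 in H20, 50.1 in C25 and 212 in H3. The groups overlapped, with H1 the lowest of all detected rats and H3 far above the rest. H3 had a listed error of 5.37% for this miRNA, the smallest of the 11 rats. rno-miR-483* ranked 83rd in brightness among the 208 miRNAs detected in H3, and 145th to 184th in the other rats that had it.

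With the undetected rat set to the floor of 5.17, the median over arrays of the lowest detected signal, the scaled signal of rno-miR-483* was 17.1 ± 8.44 (SD, n = 6) in control rats and 55.5 ± 80.5 (SD, n = 6) in the high fat group. The medians lay closer, at 15.8 and 23.9. The log2 difference was 1.04 (standard error 0.63), with an SD of 1.22 within the groups. In listed signal, with C60 at a floor of 4.96, the means were 17.2 ± 11.2 (SD, n = 6) and 58.2 ± 76.4 (SD, n = 6), a log2 difference of 1.25 (standard error 0.63). On both scales 2 rats of the high fat group lay above every control rat, and with quantile normalization, where the log2 difference was also 1.25, 4 did. The scaled value was the highest log2 difference of the 193 miRNAs. However, it ranked 2nd with array weights, with a lower floor or without H3 and H1 together, and 3rd without H3. Without H3 it was 0.58 (standard error 0.41), and over the 11 rats in which it was detected it was 0.73 (standard error 0.70). It was 1.64 (standard error 1.43) on the first slide, which holds H3 and C60, and 0.43 (standard error 0.48) on the second.

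rno-miR-483, the name without a star of the Igf2 hairpin, was at the limit of detection. It was listed at 13.2 in control rat A110, and in the high fat group at 12.5 in H3, 9.62 in H20 and 8.96 in H1. The other 8 rats had no detected signal. The listed error was 23.2% to 32.1% of the signal in the 4 rats. Detection was therefore in 1 of 6 control rats and 3 of 6 rats of the high fat group, and no fold is given because most values are set by the floor. Each detected signal of a member was over 3 times its listed error, and undetected signals have no listed error.

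**Figure D3:**
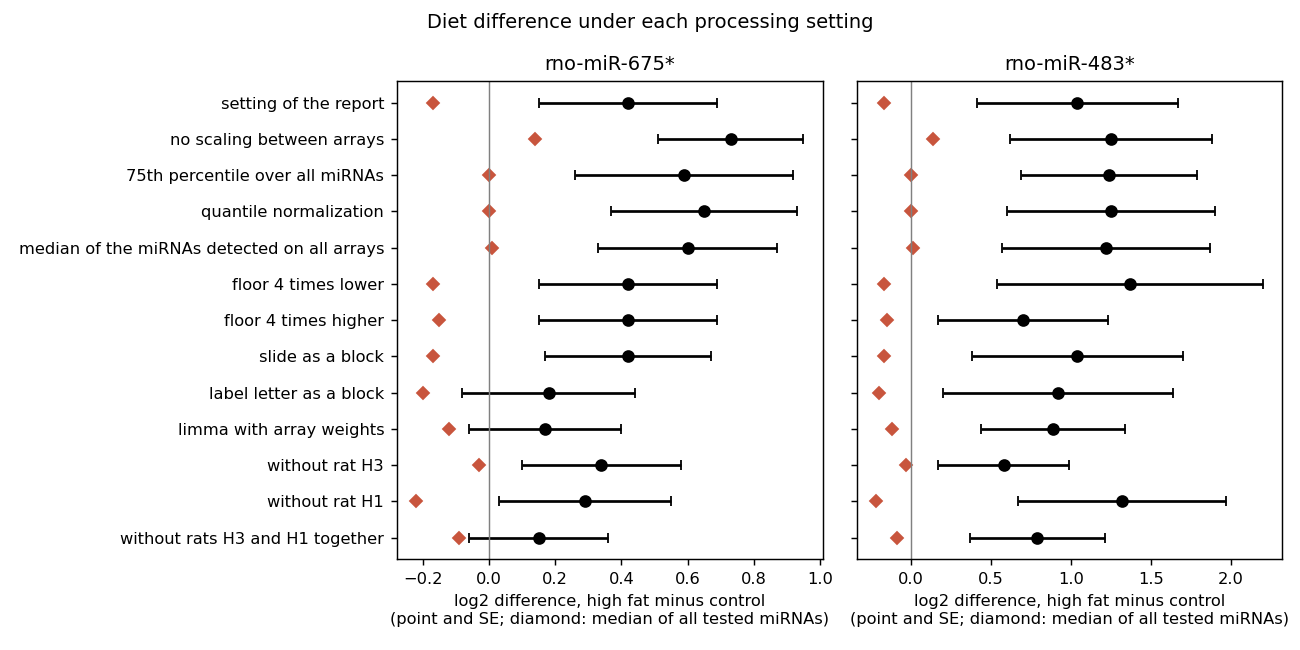
Log2 difference between the diets (x axis, high fat minus control, with its standard error) of rno-miR-675* and rno-miR-483* under 13 settings, with the median of all tested miRNAs as a diamond. All circles lie above 0, and that of rno-miR-675* is nearest to 0, at 0.15, without rats H3 and H1.

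H3 stood apart in some cell type markers as well, among them markers of muscle and of slow fibres. In bulk muscle, fewer cells of a type and less RNA per cell cannot be told apart. The 4 skeletal muscle markers, miR-1, miR-133a, miR-133b and miR-206, were detected on all 12 arrays. Their summed scaled signal was 158443 to 280572 in control rats, 142443 to 254534 in the high fat group and 244719 in H3. Within that sum, H3 had the lowest miR-206, at 9354 against 30841 to 60699 in the other 11 rats, and the highest miR-1, at 136123 against 51591 to 106415. The slow fibre markers miR-499 and miR-208b, which lie in slow myosin genes, summed to 366 in H3, with miR-208b-3p not detected in it, and to between 4588 and 9249 in control rats and 5085 and 8061 in the other rats of the high fat group. H3 was the only rat with a detected epithelial marker, with 2 of the 5 (miR-200a, scaled signal 12.2, and miR-200b, scaled signal 8.82), while miR-200c, miR-141 and miR-429 were detected in none. Both were low signals, with the floor at 5.17. The 4 blood cell markers summed to 4168 in H3, with 1596 to 3860 in control rats and 1386 to 2756 in the other rats of the high fat group. Of these markers, the erythroid miR-451 was above the other 11 rats in H3, at 3054 against 402 to 2363, while miR-144, miR-142-3p and miR-223 lay within their range. The endothelial miR-126 was 2004 in H3 and 3951 or more in the other 11 rats, and the smooth muscle markers miR-143 and miR-145 summed to 2859 in H3 and to 4860 or more elsewhere. The islet miR-375 was detected in no rat, and of the neural pair miR-124 and miR-9 only miR-9 was, in 1 control rat. The liver miR-122 was 22.6 in H3, within the range of the control rats, which ran from not detected to 406. The part of these markers in the high rno-miR-483* and rno-miR-675* of H3 was not tested. In H1, the other rat with high rno-miR-675*, the slow fibre markers summed to 6547 and no epithelial marker was detected, and its rno-miR-483* was the lowest detected in any rat.

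The rats were ordered differently by the 2 star names. H1 had the second highest scaled signal of rno-miR-675* at 72.1 and the lowest detected one of rno-miR-483*, and C60 had the fourth highest of rno-miR-675* at 43.2 and no detected rno-miR-483*. H3 was highest for both. No correlation between members was computed, because no pair of them was detected on all 12 arrays. Between the listed signal and the array's 75th percentile, both on the log2 scale, Pearson's r was 0.32 and Spearman's rho 0.30 for rno-miR-675* over 12 rats. For rno-miR-483* r was 0.36 and rho 0.69 over the 11 rats with a signal. These values are given as a description.

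Among the 161 other miRNAs detected on all arrays, the pattern over the 12 rats was most like that of rno-miR-675* for miR-29c*, with a Pearson's r of 0.82 on the log2 scaled signal. It was followed by miR-361 at 0.80, miR-1 at 0.72, miR-1224 at 0.71 and miR-30d at 0.69. miR-1 is a muscle-specific miRNA, and miR-29c* comes from the hairpin of miR-29c, a miRNA that acts on collagens. All of these values share the scaling of the same arrays. Within the slides r was 0.74 to 0.96 for these 5 on the first and 0.07 to 0.61 on the second. Without H3 and H1, r was 0.24 to 0.45. None of the 5 passed the adjusted threshold between the diets, with limma adjusted p-values of 0.736 to 0.988 and log2 differences between -0.03 and 0.26 on the scaled signal. On the listed signal the log2 differences were 0.28 to 0.57.

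**Figure D4:**
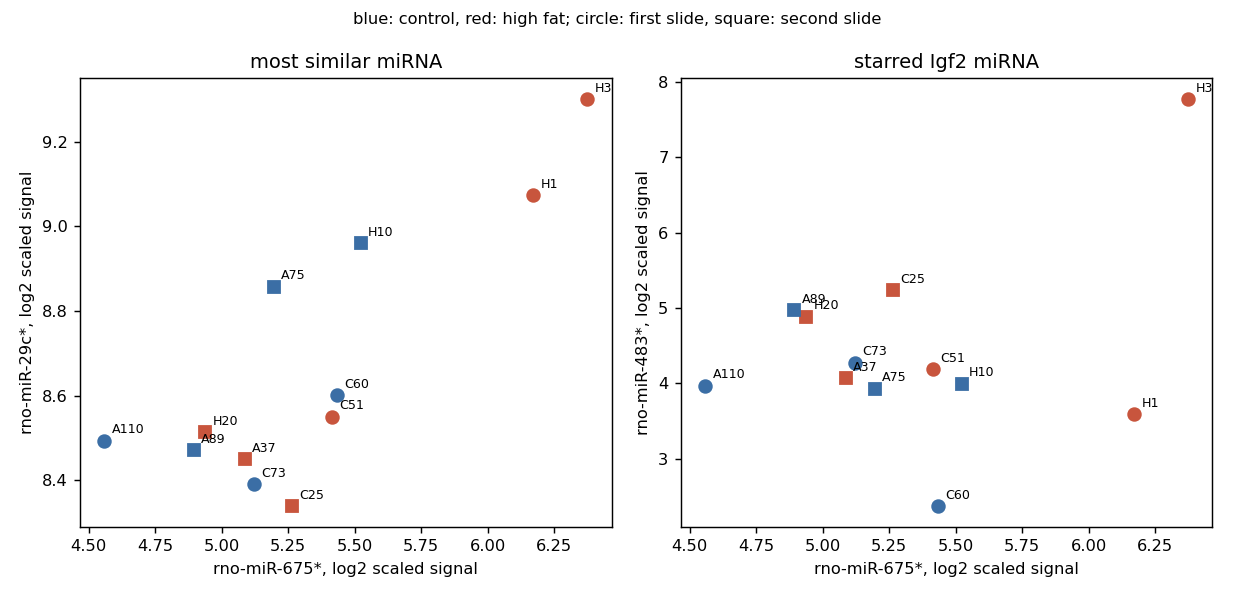
Log2 scaled signal of rno-miR-675* (x axis) against that of miR-29c* (left) and rno-miR-483* (right) in 12 rats, by diet (colour) and slide (symbol), with C60 at the floor for rno-miR-483*. H3 and H1 are highest for both miRNAs on the left, while on the right H3 is highest and H1 is among the lowest.

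Among miRNAs of other imprinted genes, 0 of those tested passed the adjusted threshold. Of all 193 tested miRNAs, 39 had a positive log2 difference on the scaled signal and the rest a negative one, while on the listed signal 40 had a negative one. miR-335, in an intron of the imprinted gene Mest, was detected on all 12 arrays, and its scaled signal averaged 89.4 ± 35.7 (SD, n = 6) for the control rats and 70.0 ± 48.6 (SD, n = 6) for the high fat group. Its log2 difference was -0.55 (standard error 0.44, limma adjusted p = 0.685), and -0.24 on the listed signal. Of the 4 names of the Gnas region, miR-296* was detected on all arrays, and miR-296, miR-298 and miR-298* on none. The scaled signal of miR-296* was 60.2 ± 15.2 (SD, n = 6) in control rats and 53.5 ± 7.51 (SD, n = 6) in the high fat group, a log2 difference of -0.15 (standard error 0.17, limma adjusted p = 0.736), and 0.16 on the listed signal. Of 87 names of the Dlk1-Dio3 region, the large imprinted miRNA cluster, 18 were detected on at least 1 array and 9 could be tested. Of these 9, 0 passed the adjusted threshold in either direction. Their median log2 difference was -0.27 on the scaled and 0.04 on the listed signal, beside -0.17 and 0.14 for all tested miRNAs. miR-487b, with the highest mean signal of them, was at 285 ± 43.6 (SD, n = 6) in control rats and 241 ± 59.1 (SD, n = 6) in the high fat group, with H3 the lowest rat at 142 and the other 11 at 218 or more.

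The let-7 miRNAs, which H19 RNA is known to bind, were measured by 8 names with miR-98, all detected on all 12 arrays. Of these, 0 passed the adjusted threshold in either direction, and the median log2 difference was -0.22 on the scaled and 0.09 on the listed signal, beside -0.17 and 0.14 over all 193, of which 0 passed. let-7f was at 11150 ± 1274 (SD, n = 6) in control rats and 9923 ± 1617 (SD, n = 6) in the high fat group, with H3 the lowest rat at 7219 and the other 11 at 8872 or more. H3 was also the lowest rat for let-7a, let-7b and let-7c, but not for let-7d, let-7e, let-7i or miR-98. Of the miRNAs known to act on IGF signalling, 9 were tested, 0 passed the adjusted threshold in either direction, and the median was -0.03 on the scaled and 0.28 on the listed signal, beside the same -0.17 and 0.14. miR-133b, with the highest mean signal of them over the 12 rats, which belongs to a family that acts on the IGF1 receptor, was at 82152 ± 20361 (SD, n = 6) and 78458 ± 17783 (SD, n = 6). For miR-125b-5p, which acts on Igf2 mRNA in myoblasts, the log2 difference was -0.36 (standard error 0.20, limma adjusted p = 0.685).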

How the data were processed

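The authors hybridised 100 ng of Cy3-labelled total RNA per rat to 1-colour Agilent rat miRNA arrays. They deposited for each miRNA the total signal intensity given by the scanner software, its error and a detection call, with no scaling between arrays. The series' value table held the same intensities, with 0 values differing by over 0.001. The extraction software's version is not given in the sources used here. The 22 control rows were left out.

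Signals were scaled as described with rno-miR-675*, raised to a floor of 5.17 and log2-transformed. limma 3.58.1 (R 4.3.3) compared the groups over 193 miRNAs with a detection on 6 or more arrays, and p-values were adjusted by Benjamini-Hochberg. limma also gave the members' standard errors, except those within slides or over detected rats only, which are from the pooled SD. The errors from limma draw on the variance of all tested miRNAs. For the scaled signal of rno-miR-483* limma gave 0.63 and the pooled SD gives 0.70. The fit was tested on simulated data. The alternatives covered scaling, floor, filter, blocks, the test and each rat left out.

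The members and the lists were chosen with earlier results of these data known. The named miRNAs are the members, the 5 most like rno-miR-675*, the cell type markers, miR-335, miR-296, miR-298 and the miRNA with the highest mean signal of each list, and miR-125b-5p, miR-21, miR-322, miR-338 and the pairs like that of rno-miR-675 were added after values were seen. The array has no miR-486 under that name. Slides were read from the array identifiers. The number of arrays limits the precision. The study's methods give fewer high fat offspring than the arrays here, while its phenotype data give fewer control offspring. The study does not name the rats, and all 12 arrays were used.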

Additional observations from a re-analysis of the deposited data

Results flagged for a closer look

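Of 18 groups of 6 rats examined for 1 rat set apart from the rest, 1 was found, for miR-1224 in rat H3 of the high fat group, with a scaled signal of 1752 against 394 to 657 in the other 5 rats. Chance gives about 1 in 20 for groups chosen without regard to their values, which does not apply here. The 18 hold the members, and miR-1224 was named for its likeness to rno-miR-675*, with an r of 0.71, and of 0.24 without H3 and H1, so the finding is given as a value only. For rno-miR-483* the gap between H3 and the next rat was 0.607 of the range of its group on the log2 scale. That value is a description, and no verdict is drawn from it.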

How the results depend on the processing

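The log2 difference of rno-miR-675* was positive under 29 of 30 alternatives, 5 of them added with the data already seen. The exception was the second slide, at -0.11, with 0.95 on the first, and the cause was not tested. Leaving out 1 rat at a time gave 0.29 to 0.62. Quantile normalization gave 0.65, a 75th percentile over every miRNA 0.59 and array weights 0.17. That of rno-miR-483* was positive under all 30 of its alternatives, from 0.43 to 1.64, and from 0.58 to 1.32 when 1 rat was left out. The floor moved it, to 1.37 with a floor 4 times lower and 0.70 with one 4 times higher. It could not be fitted with only miRNAs detected on all 12 arrays. Several alternatives left the values at 0.42 for rno-miR-675* and 1.04 for rno-miR-483* by their construction. These were the blocks for slide and row, the series' value table, a filter of at least 3 arrays and limma's trend and robust options. Both floors also left rno-miR-675* at 0.42. The number of positive alternatives is therefore no measure of stability. Under all 29 alternatives of the fit, 0 miRNAs had an adjusted p under 0.05, while the 2 with an unadjusted p under 0.05 became 1 to 15, the 15 without rat H1, and 12 with array weights. The relation between members was not run under any alternative. No paired analysis was possible because the rats' labels share no number between the groups. Signal over background limits rno-miR-483 and rno-miR-675, near or below detection.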

Other observations

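The miRNA whose pattern was most opposed to that of rno-miR-675* was miR-338, a miRNA in an intron of the Aatk gene, which was picked after its values were seen. Its Pearson's r with rno-miR-675* over the 12 rats was -0.71, with -0.82 on the first slide, -0.73 on the second and -0.51 without H3 and H1. On the listed signals r was -0.37. The scaled signal of miR-338 ran from 103 in H3 to 1189, with 217 in H1, and its log2 difference between the diets was -0.67 (standard error 0.43, limma adjusted p = 0.685) on the scaled and -0.36 on the listed signal. Of the 240 star names on the array, 39 were detected on at least 6 arrays and 27 on all 12, the group in which rno-miR-675* falls. Of the 173 array names found in the RefSeq table, 22 of 92 (23.9%) with a GC content of 50% or more were detected on at least 6 arrays, and 12 of 81 (14.8%) of the others. These matched names are a minority of the 677 on the array.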
